A study of Mus musculus with 12 samples.

Results

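Genes of macrophages and of colony-stimulating factors, 6 in all, were followed in RNA of the mouse oviduct. They are Csf1r, Mrc1, Lyz2 and Cd163, which are expressed by macrophages, and Csf1 and Csf3, which encode colony-stimulating factors. The genes were taken by symbol, 1 probe set each, from 1997 probe sets that could be followed on all 12 arrays. Csf1r and Csf1 have further probe sets that were not among these, since the part of the study's list of changed genes used here does not hold them. Such probe sets could not be compared between groups. The 6 genes were chosen because the study listed them as changed. Their rows were located with the fold changes printed there, so that the differences below are a description of these arrays. Counts of genes past a limit are given beside the share of all rows past it, and no p-value or support is drawn from them.

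Whole oviducts of immature C57BL/6 female mice were profiled in 4 groups of 3 arrays, and each array carried RNA pooled from 3 to 4 mice, with different mice in each replicate. PMSG-treated ESR1KO mice and PMSG-treated WT mice received 5 IU of PMSG (pregnant mare serum gonadotropin, which drives follicle growth and ovarian estradiol output) at 23 days of age and were collected 48 h later. ESR1KO and WT mice were collected untreated at 23 days, so that PMSG and 48 h of age cannot be told apart. ESR1KO mice were ESR1-/-, with or without ZP3Cre, and lacked estrogen receptor alpha in every tissue. The WT mice were their siblings, ESR1flox/- with or without ZP3Cre, and therefore carried a single floxed copy of Esr1 beside a deleted copy. ZP3Cre is active in the oocyte. Signals are log2 values after GC-RMA, so that a difference of 1 is 2-fold.

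Macrophages are phagocytic cells that reside in most tissues, including the reproductive tract, where they clear debris, present antigen and take part in tissue remodelling. CSF1 is the main survival and growth factor of the lineage and acts through CSF1R, a receptor tyrosine kinase that also binds IL34. CSF3 is the granulocyte factor and acts through CSF3R on neutrophils and their precursors, whereas CSF2 binds a receptor of its own.

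Medians of the arrays lay between 5.63 and 5.75. A signal under 4 is treated here as near background, which took in 41.5% to 42.3% of an array's rows. The targeted gene Esr1 (1460591_at) read 10.11, 10.62 and 10.56 in PMSG-treated ESR1KO, against 12.62, 12.82 and 12.21 in PMSG-treated WT. It read 10.42, 12.13 and 11.05 in ESR1KO, against 12.94, 12.92 and 13.05 in WT. Where this probe set lies relative to the deleted part of the gene is not given in the sources used here. ESR1KO replicate 2 was thus the ESR1KO array closest to WT, and differences that rest on the ESR1KO group are given with and without it.

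Promoter sequences are shown because the macrophage genes were all higher in ESR1KO than in WT, with or without PMSG, a direction shared by genes chosen as changed. With PMSG in WT oviducts they did not move together, since Mrc1 and Cd163 were higher and Csf1r and Lyz2 overlapped. RefSeq promoter windows of GRCm38.p6, from 250 bases before to 50 bases after the gene start, were found for 4 of the 6 genes, namely Mrc1, Lyz2, Cd163 and Csf1. The stretch before the gene start is printed for Mrc1 and Cd163, whose signals followed each other most closely among the 6 genes, and for the ligand gene Csf1. Capitals mark GAGGAA on either strand, the core recognised by PU.1, the transcription factor of the myeloid lineage. The Mrc1 stretch is chr2:14229164-14229413 (plus strand), that of Cd163 is chr6:124304401-124304650 (plus strand) and that of Csf1 is chr3:107760470-107760719 (minus strand).
Mrc1: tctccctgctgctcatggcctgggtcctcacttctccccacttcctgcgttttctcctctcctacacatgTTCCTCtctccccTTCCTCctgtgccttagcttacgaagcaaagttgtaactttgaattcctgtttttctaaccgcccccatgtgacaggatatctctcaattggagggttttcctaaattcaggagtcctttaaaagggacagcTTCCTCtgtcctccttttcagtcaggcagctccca
Cd163: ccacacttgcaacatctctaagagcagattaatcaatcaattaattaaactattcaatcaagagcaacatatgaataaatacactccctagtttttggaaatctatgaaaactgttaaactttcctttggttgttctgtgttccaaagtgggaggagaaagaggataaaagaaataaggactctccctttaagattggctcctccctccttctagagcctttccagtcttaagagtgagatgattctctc
Csf1: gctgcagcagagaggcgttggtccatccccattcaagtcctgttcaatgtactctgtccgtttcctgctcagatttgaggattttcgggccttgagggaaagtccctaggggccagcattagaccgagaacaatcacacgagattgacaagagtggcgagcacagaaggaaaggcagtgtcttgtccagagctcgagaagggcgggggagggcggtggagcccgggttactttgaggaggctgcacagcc
Mrc1 held 3 matches to GAGGAA, all before the gene start and on the minus strand, and the other windows held 0. The core of the estrogen response element, GGTCA on either strand, had 1 match in the Lyz2 window and 1 in the Cd163 window, both after the gene start, and 0 in those of Mrc1 and Csf1. The full palindromic element, GGTCA and TGACC with any 3 bases between them, and the AP-1 site TGANTCA (either strand) had 0 matches in the 4 windows. Among 32851 promoter windows of the same length, 28.3% held GAGGAA, 40.5% GGTCA, 0.07% the palindrome and 7.81% the AP-1 site. GGTCA is contained in the palindrome. A match is a description of the letters and not of binding.

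After PMSG, all 4 macrophage genes and Csf1 were higher in ESR1KO than in WT oviducts, and Csf3 was lower. Fold differences were 4.54 for Cd163, 3.08 for Csf1r, 2.84 for Lyz2, 2.00 for Mrc1 and 1.94 for Csf1, whereas Csf3 was 24.4-fold lower. The 3 arrays of a group did not overlap those of the other for any of the 6 genes, 5 of them with PMSG-treated ESR1KO above and 1 below. Over all rows of the array, groups stood apart with PMSG-treated ESR1KO above in 11.5% and below in 8.08%. By an adjusted p under 0.05 and a difference of at least 2-fold, 5 of the 6 genes were called and Csf1 was not, since its difference was under 2-fold. The same rule called 4.48% of all rows and 48.3% of the matched probe sets. The genes were chosen from this contrast and nothing is read from these counts. The oviduct is a mixture of cells, and in such RNA a difference in the number of cells of a type cannot be told apart from a difference in RNA per cell.

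**Figure D1:**
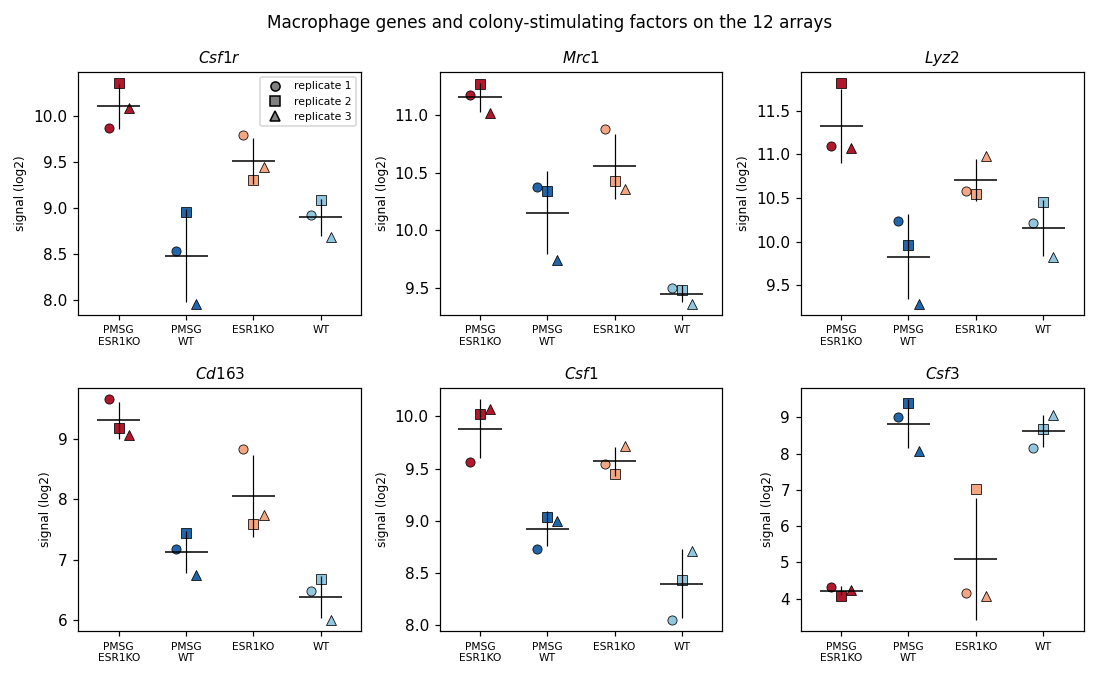
Signal (log2) of the 6 genes on each of the 12 arrays, by group, with replicate numbers as symbols, the group mean as a horizontal line and the SD as a vertical line. Csf3 lies between 4.08 and 4.32 in PMSG-treated ESR1KO and between 8.08 and 9.38 in PMSG-treated WT, and the other 5 genes lie higher in PMSG-treated ESR1KO.

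Csf1r (1419873_s_at), the receptor of CSF1, read 9.87, 10.36 and 10.09 in PMSG-treated ESR1KO and 8.53, 8.96 and 7.96 in PMSG-treated WT. In the untreated groups it read 9.79, 9.30 and 9.45 in ESR1KO and 8.92, 9.09 and 8.69 in WT. Means were 10.11 ± 0.25 (SD, n = 3) in PMSG-treated ESR1KO, 8.49 ± 0.50 in PMSG-treated WT, 9.51 ± 0.25 in ESR1KO and 8.90 ± 0.20 in WT. PMSG-treated ESR1KO was thus highest, followed by ESR1KO, and PMSG-treated WT and WT overlapped at the low end. PMSG-treated ESR1KO exceeded PMSG-treated WT by 1.62 (SE 0.25). ESR1KO exceeded WT by 0.61 (SE 0.24), and by 0.72 without ESR1KO replicate 2. Csf1r therefore stood further apart between the genotypes after PMSG, with a genotype by PMSG difference of 1.01 (SE 0.34) that was not called. Further Csf1r probe sets could be read in ESR1KO alone, where a brighter one averaged 11.33 and a weaker one 8.30.

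Mrc1 (1450430_at) encodes the mannose receptor CD206, an endocytic lectin of tissue macrophages. It read 11.18, 11.27 and 11.02 in PMSG-treated ESR1KO and 10.38, 10.34 and 9.74 in PMSG-treated WT. The untreated groups read 10.88, 10.43 and 10.36 in ESR1KO and 9.50, 9.48 and 9.36 in WT. Means were 11.15 ± 0.13 in PMSG-treated ESR1KO, 10.15 ± 0.36 in PMSG-treated WT, 10.55 ± 0.28 in ESR1KO and 9.45 ± 0.08 in WT. In the order of these levels, the only neighbours that overlapped were ESR1KO and PMSG-treated WT, in the middle. The genotype difference was 1.00 (SE 0.18) with PMSG, which put Mrc1 only just at the 2-fold limit, and 1.11 (SE 0.19) without PMSG. Without ESR1KO replicate 2 the untreated difference was 1.17. Mrc1 was higher after PMSG in either genotype, by 0.60 (SE 0.19) in ESR1KO and by 0.71 (SE 0.18) in WT.

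Cd163 (1419144_at) encodes the macrophage scavenger receptor for haemoglobin bound to haptoglobin. It read 9.66, 9.19 and 9.07 in PMSG-treated ESR1KO and 7.17, 7.45 and 6.75 in PMSG-treated WT. In ESR1KO it read 8.83, 7.59 and 7.74, and in WT 6.48, 6.68 and 6.00. Cd163 had the largest genotype differences of the 4 macrophage genes, 2.18 (SE 0.26) with PMSG and 1.67 (SE 0.34) without, and the second became 1.90 without ESR1KO replicate 2. Group means were 9.31 ± 0.31 in PMSG-treated ESR1KO, 7.12 ± 0.35 in PMSG-treated WT, 8.05 ± 0.68 in ESR1KO and 6.39 ± 0.35 in WT. In order of level (PMSG-treated ESR1KO, ESR1KO, PMSG-treated WT and WT) no neighbours overlapped, although PMSG-treated WT and WT were only 0.07 apart at their nearest arrays.

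Lyz2 (1423547_at) encodes lysozyme M, which degrades bacterial cell walls and is abundant in macrophages and neutrophils. It read 11.10, 11.82 and 11.07 in PMSG-treated ESR1KO and 10.24, 9.96 and 9.29 in PMSG-treated WT. In ESR1KO it read 10.58, 10.55 and 10.98, and in WT 10.21, 10.45 and 9.82. The difference was 1.5 (SE 0.29) with PMSG and 0.54 (SE 0.28) without, and the second was 0.62 without ESR1KO replicate 2. As for Csf1r, the arrays of PMSG-treated WT (9.83 ± 0.49) and WT (10.16 ± 0.32) overlapped. The means of the other groups were 11.33 ± 0.43 in PMSG-treated ESR1KO and 10.70 ± 0.24 in ESR1KO. Its near-identical paralogue Lyz1 (1436996_x_at), lysozyme P, averaged 12.91 ± 0.18 in PMSG-treated ESR1KO, against 11.57 ± 0.41 in PMSG-treated WT, and 12.62 ± 0.25 in ESR1KO and 11.76 ± 0.32 in WT, a difference of 0.85, or 0.96 without ESR1KO replicate 2. Signals of these paralogues may be shared between their probes, so that Lyz2 and Lyz1 are not independent measurements.

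Csf1 (1460220_a_at), the gene of the ligand, read 9.56, 10.02 and 10.07 in PMSG-treated ESR1KO and 8.73, 9.04 and 9.0 in PMSG-treated WT. It read 9.54, 9.45 and 9.72 in ESR1KO and 8.05, 8.43 and 8.71 in WT. The difference between genotypes was 0.96 (SE 0.21) with PMSG and 1.18 (SE 0.20) without, or 1.23 without ESR1KO replicate 2. The means were 9.88 ± 0.28 in PMSG-treated ESR1KO, 8.92 ± 0.17 in PMSG-treated WT, 9.57 ± 0.14 in ESR1KO and 8.40 ± 0.33 in WT. PMSG-treated ESR1KO and ESR1KO overlapped, whereas PMSG-treated WT lay above WT by a gap of only 0.02. A second row of the untreated ESR1KO columns also met the limits used to locate Csf1. Its p-values deviated by 0.207%, against 0.0103% for the row taken, and the probe set of the row taken is annotated to Csf1.

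Csf3 (1419427_at) was the only one of the 6 genes that was lower in ESR1KO mice. It read 4.32, 4.08 and 4.25 in PMSG-treated ESR1KO and 9.02, 9.38 and 8.08 in PMSG-treated WT, a difference of -4.61 (SE 0.35). In ESR1KO it read 4.16, 7.03 and 4.09, and in WT 8.16, 8.67 and 9.05, a difference of -3.54 (SE 0.67). Of the 6 arrays from ESR1KO mice, with or without PMSG, 5 were thus close to the near-background level of 4. ESR1KO replicate 2 stood apart from them while remaining below every WT array. Without ESR1KO replicate 2 the untreated difference was -4.50. Since most Csf3 signals in ESR1KO mice lay close to background, its fold differences are uncertain in size. Means were 4.22 ± 0.12 in PMSG-treated ESR1KO, 8.83 ± 0.68 in PMSG-treated WT, 5.09 ± 1.68 in ESR1KO and 8.63 ± 0.45 in WT, and PMSG-treated WT overlapped WT.

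In untreated oviducts the groups also did not overlap for any of the 6 genes, with ESR1KO above WT for 5 and below for 1. Among the matched probe sets, ESR1KO lay apart above WT in 42.7% and apart below in 35.8%. Mrc1 (2.16-fold), Cd163 (3.18-fold) and Csf1 (2.26-fold) were called higher and Csf3 (11.6-fold) lower, while Csf1r (1.53-fold) and Lyz2 (1.46-fold) were not called. The rule called 18.1% of the matched probe sets, namely 9.11% higher and 9.01% lower. None of the 4 calls was kept under every setting, since 0 were made with only the 6 untreated arrays. None was made either when ESR1KO replicate 1, WT replicate 1 or WT replicate 2 was left out, although the directions stayed.

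PMSG in WT oviducts was accompanied by higher Mrc1 (0.71, SE 0.18), Cd163 (0.74, SE 0.26) and Csf1 (0.53, SE 0.21), whose arrays did not overlap, and by overlapping values of Csf1r (-0.42, SE 0.25), Lyz2 (-0.33, SE 0.29) and Csf3 (0.20, SE 0.35). Over all rows PMSG-treated WT stood apart above WT in 5.21% and apart below in 8.32%. None of the 6 genes was called, against 0.251% of all rows and 3.81% of the matched probe sets. In ESR1KO oviducts the 4 macrophage genes were higher after PMSG on every array, by 1.25 (SE 0.34) for Cd163, 0.63 (SE 0.28) for Lyz2, 0.60 (SE 0.19) for Mrc1 and 0.59 (SE 0.24) for Csf1r. Csf1 (0.31, SE 0.20) and Csf3 (-0.88, SE 0.67) overlapped. PMSG-treated ESR1KO lay apart above ESR1KO in 14.6% of the matched probe sets and apart below in 6.91%. Again 0 of the 6 genes were called, against 0.1% of the matched probe sets. Without ESR1KO replicate 2 these differences were 1.02 for Cd163, 0.55 for Lyz2, 0.53 for Mrc1, 0.48 for Csf1r, 0.25 for Csf1 and 0.09 for Csf3.

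**Figure D2:**
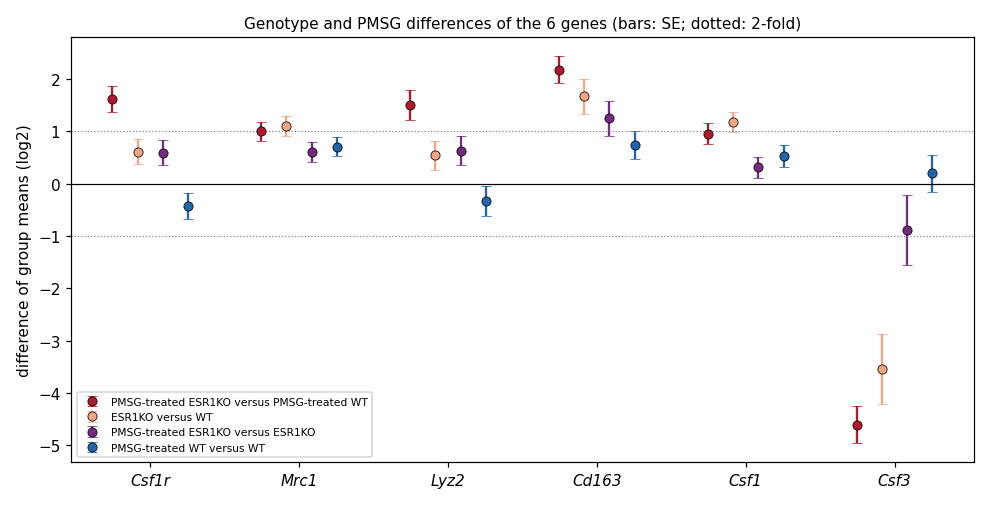
Difference of group means (log2) of the 6 genes in the 4 comparisons, with the SE as bars and dotted lines at 2-fold. Points of 1 gene share groups and are not independent. Csf1r and Lyz2 lie above 0 in 3 comparisons and at -0.42 and -0.33 for PMSG-treated WT versus WT, and Csf3 lies at -4.61 and -3.54 in the genotype comparisons.

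The genotype by PMSG difference, which asks whether the response to PMSG differed between genotypes, was called for 0 of the 6 genes and for 0.651% of the matched probe sets. It was 1.01 (SE 0.34) for Csf1r, 0.96 (SE 0.40) for Lyz2, 0.52 (SE 0.47) for Cd163, -0.11 (SE 0.27) for Mrc1, -0.22 (SE 0.28) for Csf1 and -1.08 (SE 0.94) for Csf3. The value of Csf3 rested on ESR1KO replicate 2, without which it was -0.11. Without that array the others were 0.90 for Csf1r, 0.88 for Lyz2, 0.28 for Cd163, -0.17 for Mrc1 and -0.28 for Csf1.

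Among replicates the macrophage genes varied together to differing degrees. PMSG-treated WT replicate 3 and WT replicate 3 were the lowest of their group for all 4 macrophage genes, and ESR1KO replicate 1 was the highest of its group for Csf1r, Mrc1 and Cd163. Such ranks were not particular to macrophage genes. PMSG-treated WT replicate 3 was also lowest for Cd74, Cxcl12 and Ltf, though not for Pdgfra. ESR1KO replicate 1 was also highest for Pdgfra and Cxcl12, though not for Cd74 or Ltf. Whether whole arrays differed in cell content was not tested. Across the 12 arrays, which share the group differences, Pearson's r was 0.96 between Mrc1 and Cd163, 0.93 between Csf1r and Lyz2, and 0.76 to 0.85 for the other pairs of the 4 genes. After subtraction of the group means r was 0.80 between Csf1r and Mrc1, 0.78 between Mrc1 and Cd163, and 0.22 between Lyz2 and Cd163. Csf1 correlated with the 4 macrophage genes at 0.68 to 0.86 across the arrays, but at -0.38 to 0.09 after subtraction of the group means. Csf3 ran at -0.85 to -0.78 with them across the arrays and at -0.30 to 0.01 within groups. Without ESR1KO replicate 2 the within-group values were -0.55 to 0.03 for Csf1 and 0.23 to 0.52 for Csf3, so that those of Csf3 rested on this array. For the 4 macrophage genes they were 0.16 to 0.79, and over the 11 arrays r was 0.97 between Mrc1 and Cd163 and 0.93 between Csf1r and Lyz2.

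**Figure D3:**
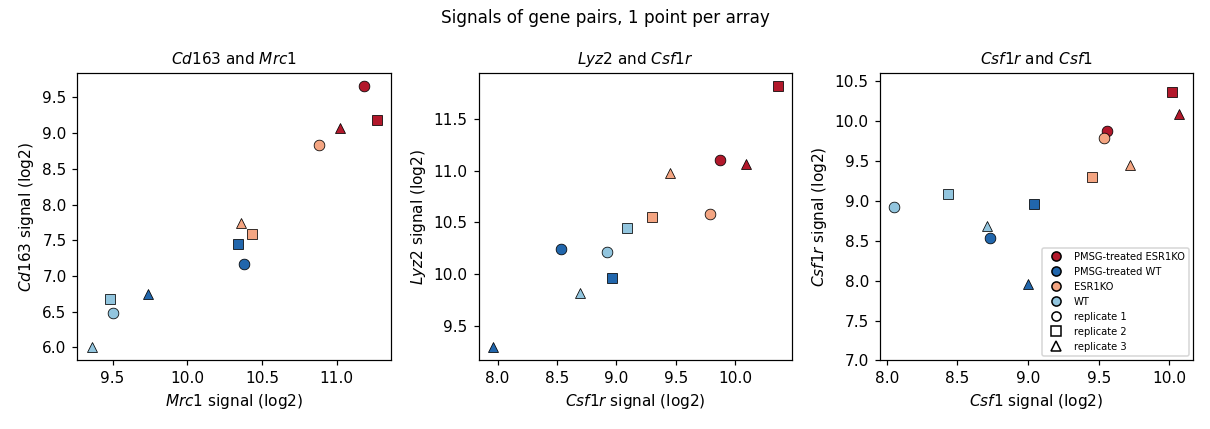
Signals (log2) of Cd163 against Mrc1, Lyz2 against Csf1r, and Csf1r against Csf1, with 1 point per array, groups as colours and replicates as symbols. Cd163 and Mrc1 fall along a narrow band (r = 0.96 over 12 arrays), with PMSG-treated ESR1KO at the upper end and WT at the lower end.

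Among 1847 matched probe sets with a single gene symbol, those most like each gene over the 12 arrays were named by Pearson's r. For Csf1r they were Col4a5 (0.980), Ntn1 (0.971) and Col4a6 (0.970). For Mrc1 they were F13a1 (0.990), Cd163 (0.965) and Fkbp7 (0.963), and for Cd163 they were Mrc1 (0.965), Ndn (0.961) and Arhgap20 (0.959). For Lyz2 they were Cd74 (0.980), the invariant chain of MHC class II, Cd84 (0.951) and Lyz1 (0.950). Csf1 was most like Ppm1a (0.963), Etv5 (0.955) and Angpt4 (0.951). Csf3 was most like Cbs (0.993), Cyp26a1 (0.989) and Hpgds (0.988), and all 3 were lower in ESR1KO mice with or without PMSG. Cyp26a1, which breaks down retinoic acid, averaged 4.16 in PMSG-treated ESR1KO, against 11.20 in PMSG-treated WT, and 4.90 in ESR1KO and 10.21 in WT. All probe sets searched had been listed as changed in the study, so that they share group differences by that choice.

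Of 34 further macrophage genes on the array, 9 were among the matched probe sets. After PMSG 7 of the 9 were called higher in ESR1KO, 0 lower and 2 were not called, with a median difference of 1.58. Over all matched probe sets 28.3% were called higher and the median was 0.36. Such counts cover genes that the study had listed as changed, and they include Lyz1, which is not independent of Lyz2. A further 22 of the 34 genes fall within the alphabetical part of that list that was used here and were not on it. Among them are Adgre1, Cd68, Aif1, Cx3cr1, Mpeg1 and C1qa. They could not be tested in these columns, so that the 9 genes do not stand for macrophage genes as a class. Clec7a, the beta-glucan receptor dectin-1, averaged 7.12 ± 0.24 in PMSG-treated ESR1KO, against 4.41 ± 0.61 in PMSG-treated WT. Retnla, a secreted product of alternatively activated macrophages, averaged 7.13 ± 0.33 in PMSG-treated ESR1KO, against 3.45 ± 1.24 in PMSG-treated WT, where it was near background. F13a1, a transglutaminase subunit found in macrophages and platelets, averaged 10.57 ± 0.23 in PMSG-treated ESR1KO, against 8.98 ± 0.41 in PMSG-treated WT, and Apoe, a lipid-carrying apolipoprotein, 12.07 ± 0.20 in PMSG-treated ESR1KO, against 10.49 ± 0.14 in PMSG-treated WT. Mgl2, a galactose-binding lectin (1.95), Lyz1 (1.33) and Cd84, a leukocyte adhesion receptor (1.04), were also called higher, although Cd84 was near background in PMSG-treated WT (3.31 ± 0.33). Mertk, the receptor for apoptotic cells (0.63), and Pf4, a chemokine (0.93), were under 2-fold.

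In untreated oviducts 2 of the 9 genes were called higher in ESR1KO and 7 were not called, with a median difference of 0.85, against 9.11% called higher and a median of 0.15 over all matched probe sets. F13a1 averaged 9.80 ± 0.39 in ESR1KO and 7.84 ± 0.24 in WT, and Pf4 9.62 ± 0.30 in ESR1KO and 7.69 ± 0.13 in WT. Without ESR1KO replicate 2 their differences were 2.08 each, 2 of the 9 were called higher, against 8.21% of the matched probe sets, and the median was 0.96. These are the genes that, like Mrc1 and Cd163, had every PMSG-treated WT array above every WT array, by a mean of 1.14 for F13a1 and 1.07 for Pf4. Of the 9 genes, 1 (Pf4) was called in that comparison, against 2.7% of the matched probe sets called higher. Apoe (-0.97) lay apart below WT after PMSG in WT oviducts, whereas Clec7a (-1.25) overlapped.

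**Figure D4:**
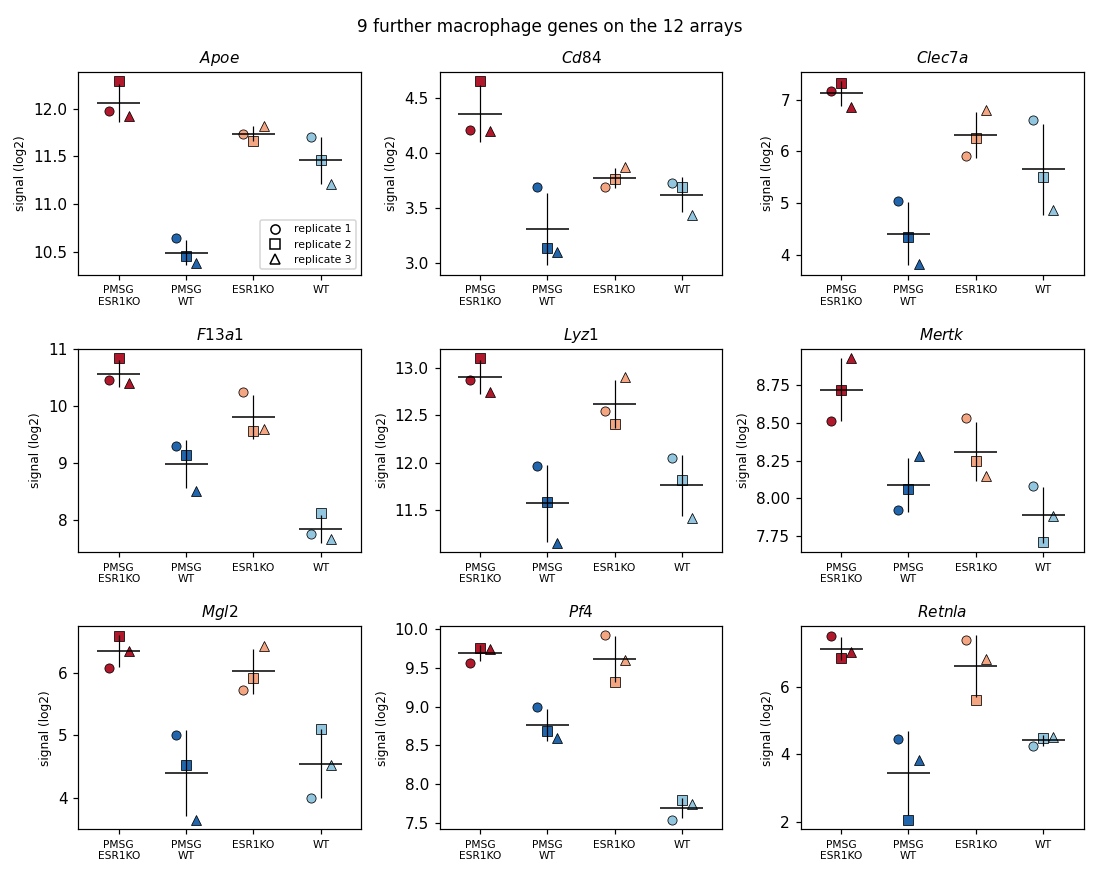
Signal (log2) of 9 further macrophage genes on each of the 12 arrays, with symbols, means and SD as for the 6 genes. F13a1 and Pf4 have their lowest values in WT, whereas Apoe, Clec7a and Retnla have their lowest mean in PMSG-treated WT.

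Markers of other cells were set beside these results, and their part in them was not tested. Of 10 neutrophil genes on the array 3 were matched (S100a8, S100a9 and Ltf). The other 7 fall within the alphabetical part of the study's list used here and were not on it. S100a8 and S100a9 were near background in PMSG-treated WT and in WT. In PMSG-treated ESR1KO 28.3% of the matched probe sets were called higher, as were all 3 matched neutrophil genes. Their mean signal per array ran from 8.40 to 10.44 in PMSG-treated ESR1KO and from 5.88 to 6.69 in PMSG-treated WT, and from 8.59 to 9.32 in ESR1KO (8.59 to 8.90 without replicate 2) and from 6.08 to 7.05 in WT. Ltf, S100a8 and S100a9 are also expressed by epithelia. Defining neutrophil genes could be read by name in ESR1KO alone, where Elane (2.12 ± 0.05), Mpo (2.20 ± 0.06), Camp (2.95 ± 0.14), Ngp (2.24 ± 0.10), Cxcr2 (2.26 ± 0.04) and Csf3r were near background. The other 4 of the 10 were at 4 or more, namely S100a8, S100a9, Ltf and Mmp8, the neutrophil collagenase (10.01 ± 0.31). For comparison, the mean of the 4 macrophage genes ran from 10.31 to 10.66 in PMSG-treated ESR1KO and from 8.44 to 9.18 in PMSG-treated WT, and from 9.46 to 10.02 in ESR1KO (9.63 to 10.02 without replicate 2) and from 8.47 to 8.93 in WT. Of 5 endothelial genes 2 were matched, and their mean ran from 6.76 to 7.24 in PMSG-treated ESR1KO and from 7.56 to 7.82 in PMSG-treated WT, and from 5.41 to 6.61 in ESR1KO (5.41 to 5.57 without replicate 2) and from 7.53 to 7.85 in WT. Pecam1 was called lower in either genotype comparison, by 1.26 on the log2 scale with PMSG and by 3.24 without (3.96 without ESR1KO replicate 2), and Kdr in neither. Among stromal genes 2 of 7 were matched, with a mean from 9.85 to 9.90 in PMSG-treated ESR1KO and from 9.34 to 9.96 in PMSG-treated WT, and from 8.19 to 9.18 in ESR1KO (likewise without replicate 2) and from 9.25 to 9.55 in WT. The 2 matched probe sets went opposite ways. That of Col1a2 averaged 4.41 in ESR1KO, close to background, and the stromal mean rests in part on it. Brighter probe sets of Col1a2 (14.01 and 13.33 in ESR1KO) could not be compared, so that the differences below may not stand for the gene. Pdgfra was called higher in ESR1KO with PMSG (1.49) and without (1.12, or 1.22 without replicate 2), whereas Col1a2 (1446326_at) differed by -1.13 with PMSG, which was not called, and was called lower without PMSG (-2.34, or -2.69 without replicate 2). Of the other lists, 1 gene each was matched. With PMSG, Cd74 of antigen-presenting cells (5.17-fold) and Cd79b of B cells (3.41-fold, near background in PMSG-treated WT) were called higher in ESR1KO, and Kit of mast cells (4.78-fold) lower. None of the 3 was called in untreated oviducts, where the differences were 0.93, 1.67 and -1.62 (1.02, 1.88 and -1.64 without replicate 2). Kit was the only 1 of 6 mast cell genes at 4 or more in ESR1KO, with or without replicate 2. Cd79b was the only 1 of 10 genes of T, B and NK cells at that level, against 7 of 11 of antigen-presenting cells. The Kit probe set compared averaged 5.89 in ESR1KO, and a brighter one 9.40. Whether Kit and Cd79b followed the number of these cells was not tested. Of 8 genes shared by all leukocytes and 7 of the oviductal epithelium, 0 were matched, although 7 and 7 of them fall within that alphabetical part.

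Of 9 genes on the list of monocyte-attracting chemokines and their receptors 2 were matched, both chemokines, and both were called higher in ESR1KO when both genotypes had PMSG, as were 28.3% of the matched probe sets. Cxcl12, the ligand of CXCR4, averaged 12.72 ± 0.39 in PMSG-treated ESR1KO, against 10.65 ± 0.32 in PMSG-treated WT, and 12.54 ± 0.17 in ESR1KO and 11.11 ± 0.19 in WT. The untreated difference was 1.43, and 1.46 without ESR1KO replicate 2. Cx3cl1, or fractalkine, averaged 7.86 ± 0.44 in PMSG-treated ESR1KO, against 6.69 ± 0.19 in PMSG-treated WT, and 7.96 ± 0.53 in ESR1KO and 7.35 ± 0.06 in WT, an untreated difference of 0.60, or 0.88 without that array. Neither was called for PMSG within a genotype, where the differences were -0.46 for Cxcl12 and -0.66 for Cx3cl1 in WT, and 0.18 for Cxcl12 and -0.09 for Cx3cl1 in ESR1KO (0.15 and -0.37 for these genes without ESR1KO replicate 2). Of the macrophage transcription factors, 1 of 5 on the array was matched. It was Maf (1447849_s_at), which averaged 10.02 ± 0.11 in PMSG-treated ESR1KO, against 8.44 ± 0.29 in PMSG-treated WT, and 9.60 ± 0.41 in ESR1KO and 8.51 ± 0.25 in WT, an untreated difference of 1.09, or 1.22 without ESR1KO replicate 2.

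Only the untreated ESR1KO columns carry probe set names for the whole array, so that the rest of the colony-stimulating factor system could be read in that group alone. Of its 9 genes, 5 had a probe set at 4 or more, including the receptor genes Csf1r, Csf2ra (9.89 ± 0.25) and Csf2rb (6.87, 6.35 and 6.57). Near background were Csf2 (1.98 ± 0.08), the second CSF1R ligand gene Il34 (2.09 ± 0.52), Csf2rb2 (3.26 ± 0.44) and Csf3r, the receptor gene of CSF3 (3.85 ± 0.03). Of the 34 further macrophage genes 30 had a probe set at 4 or more in ESR1KO, among them C1qa (9.94 ± 0.06), Adgre1 (7.88 ± 0.15), Cd68 (7.58 ± 0.32) and Aif1 (7.56 ± 0.17). The 4 near background were Siglec1, Timd4, Trem2 and Cd84. All 8 genes shared by leukocytes, Ptprc (8.81 ± 0.21) and Tyrobp (9.50 ± 0.12) among them, were at 4 or more, against 1 of 10 genes of T, B and NK cells. Over all probe sets with a single symbol 62.9% were at 4 or more, although for the lists the brightest probe set of a gene was taken, which favours them. Of the epithelial genes that mark the labelled tissue 7 of 7 were at 4 or more, including oviductal glycoprotein Ovgp1 (15.94 ± 0.04). Without replicate 2 the counts were 5 of 9, 30 of 34, 8 of 8, 1 of 10 and 7 of 7 for the same lists. How these levels compare with WT or PMSG-treated oviducts was not tested.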

How the data were processed

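The deposited values are log2 signals that the authors made from Affymetrix mouse arrays in Partek 6.6, by GC-RMA, quantile normalization and summary of each probe set by median polish. Names in the table fit the 3 untreated ESR1KO columns, and the other 9 share another row order. Correlations between columns were 0.985 to 0.993 and 0.959 to 0.997 within these sets, and -0.146 to -0.123 between them. Rows were therefore located through the printed fold changes and p-values of S1 Table, of which the first 1997 rows were held and used as keys only. All 1997 were matched, within 8.76e-05 (log2) and 0.298% of the p-values, and 29 had a second untreated ESR1KO candidate. The symbol was the same in 1821 of 1827 checkable rows, and in 0 after shuffling. A matched gene has the printed fold by construction, and genes not matched were not tested.

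limma 3.58.1 (lmFit, eBayes with a variance trend, R 4.3.3) was fitted to all rows of the 9 columns for PMSG-treated WT against WT and for the genotypes with PMSG. The other comparisons used the matched rows of 12 arrays with the prior variance of that fit (prior degrees of freedom 2.87) and Benjamini-Hochberg adjustment as for all rows, which makes their adjusted p an upper bound. Calls needed 2-fold and an adjusted p under 0.05, except that genotype by PMSG needed the adjusted p alone. Fits were tested on simulated data. The members and gene lists were chosen with earlier results of these data known. Named genes were the members, listed genes and the 3 matched genes most like each member. Of the probe sets, 34958 had 1 symbol, 932 several and 9211 none, and probe sets with several were not named. Sequences are from RefSeq (GRCm38.p6). Alternatives covered the variance model, filters, thresholds, normalization, a replicate block and each array left out.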

Additional observations from a re-analysis of the deposited data

How the results depend on the processing

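Between PMSG-treated ESR1KO and PMSG-treated WT, 5 of the 6 genes were called. With only the 6 arrays compared 3 were called (Csf1r, Cd163 and Csf3), and with 1 array left out 3 to 5, the 3 again being Csf1r, Cd163 and Csf3 without PMSG-treated ESR1KO replicate 2. In ESR1KO versus WT 4 were called, but 2 without a variance trend (Mrc1 and Csf1), 0 in the unmoderated two-way model, 0 with only the 6 arrays compared and 0 to 4 with 1 array left out. The count was 0 without ESR1KO replicate 1, WT replicate 1 or WT replicate 2, 1 without ESR1KO replicate 3 (Mrc1) or WT replicate 3 (Csf1), and 2 (Mrc1 and Csf1) without PMSG-treated WT replicate 1 or any of the PMSG-treated ESR1KO arrays. Adjusted p values are upper bounds there, so that a lost call is not shown to fail the test. For PMSG-treated ESR1KO versus ESR1KO 1 gene (Cd163) met an unadjusted p under 0.01 with 2-fold. Counts stayed at 0 in PMSG-treated WT versus WT and for genotype by PMSG with any 1 array left out. The cause of these changes was not tested.

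With 1 array left out the sign changed for 3 differences that were not called. These were Csf3 in PMSG-treated WT versus WT (-0.08 without PMSG-treated WT replicate 2), Csf3 in PMSG-treated ESR1KO versus ESR1KO (0.09 without ESR1KO replicate 2) and Mrc1 for genotype by PMSG (0.05 without ESR1KO replicate 1). With quantile normalization repeated, 30 of 30 differences moved by less than 1 SD. Neither the labels nor the methods say whether replicate numbers pair the samples. Deviations of same-numbered arrays correlated at -0.12 to 0.36, over 0.1 in 8 of 18 pairs. Differently numbered arrays were not set beside them, so that these values cannot decide whether samples were paired. Under a replicate block 5, 0, 4, 0 and 0 genes were called in the 5 comparisons, as without it, and 30 of 30 differences moved by less than 1 SD. With 1 array left out this held for 215 of 216, and the exception was the genotype by PMSG difference of Csf3, at -0.11 without ESR1KO replicate 2. Weak signals limit Csf3, Cd84, Cd79b, Clec7a, Mgl2, Retnla, S100a8, S100a9 and the Col1a2 probe set, since values near 4 are close to background.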
